A study of Mus musculus with 3 samples.

Results

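Transcripts of 5 genes of the interleukin-1 system were followed in single cells of the mouse meninges: the ligand *Il1b*, the related ligand *Il1f9* (also called *Il36g*), the receptor antagonist *Il1rn*, the decoy receptor *Il1r2* and the shared receptor subunit *Il1rap*. They were taken by symbol from the 27998 genes of the count table and measured in the 7057 barcodes, of 2211840 in all, that passed as cells (at least 500 UMIs, that is, unique molecules counted, under 8.3% of them from mitochondrial genes, and a number of genes within the study's limits). The meninges came from male C57BL/6J mice aged 10 to 12 weeks, and live nucleated cells (DAPI- DRAQ5+) were sorted before droplet capture with a 3′ kit. Home cage (HC) mice were not stressed, and chronic social defeat (CSD) mice had been through 14 days of defeat and were picked as stress-susceptible from urine scent marking and the open field according to the labels, with social interaction also named in the study's description. Each library pooled 4 mice, with 2 HC libraries (replicates 1 and 2, here HC1 and HC2) and 1 CSD library in separate lanes of 1 chip. With a single CSD library, the effect of stress and the particular pool of mice cannot be told apart.

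IL-1β is made as an inactive precursor, cut by caspase-1 in the inflammasome, and acts on target cells through the receptor *Il1r1* together with the accessory protein encoded by *Il1rap*. The system has built-in brakes: the antagonist encoded by *Il1rn* occupies the receptor without signaling, and the decoy receptor encoded by *Il1r2* binds the ligand but lacks a signaling domain. IL-36γ, the product of *Il1f9*, uses its own receptor with the same accessory protein. Myeloid cells, neutrophils among them, are a textbook source of IL-1β and of the decoy receptor.

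On GRCm38, *Il1b* (ENSMUSG00000027398) lies on chromosome 2 from 129364570 to 129371139 on the minus strand. *Il1f9* (ENSMUSG00000044103, 24186476 to 24193568) and *Il1rn* (ENSMUSG00000026981, 24336853 to 24351494) are near each other on the plus strand of the same chromosome. *Il1r2* (ENSMUSG00000026073) lies on the plus strand of chromosome 1 from 40074079 to 40125231, and *Il1rap* (ENSMUSG00000022514) on the plus strand of chromosome 16 from 26581704 to 26730117. RefSeq gave 7 promoter windows for the 5 genes. The 250 bases before the transcript start are shown for the ligand *Il1b* and the decoy receptor *Il1r2*, which gave the most UMIs of the 5 genes. The *Il1b* window is chr2:129371140-129371389 (minus strand) and the *Il1r2* window is chr1:40085843-40086092 (plus strand), both GRCm38.p6 and 5′ to 3′. The *Il1r2* window falls inside the longer gene span given above. Capitals mark matches to the motifs searched on both strands.
Il1b: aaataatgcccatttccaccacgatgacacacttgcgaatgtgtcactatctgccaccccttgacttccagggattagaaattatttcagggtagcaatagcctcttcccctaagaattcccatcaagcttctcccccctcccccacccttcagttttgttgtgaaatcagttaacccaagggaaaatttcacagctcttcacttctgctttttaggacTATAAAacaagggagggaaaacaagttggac
Il1r2: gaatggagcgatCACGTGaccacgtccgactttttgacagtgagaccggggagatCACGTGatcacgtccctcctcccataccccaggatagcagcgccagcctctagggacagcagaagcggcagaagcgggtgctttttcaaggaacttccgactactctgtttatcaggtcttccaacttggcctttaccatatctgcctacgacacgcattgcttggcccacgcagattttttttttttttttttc

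The capitals in the *Il1b* window are a TATA box (letters TATAAA), which starts 31 bases before the transcript start. This motif was in 12.4% of all 32851 promoter windows of the same length. The capitals in the *Il1r2* window are a pair of E-boxes (CACGTG), 238 and 195 bases before the start, a motif found in 6.02% of windows and searched only after the sequence had been read. Letters searched for NF-κB (GGG, any 2 bases, then TTTCC, in 1.41% of windows) matched once, in 1 of the *Il1rn* windows, 51 bases before its start. The letters searched for PU.1 (GAGGAAGT, 2.44% of windows) and C/EBP (TTGCNNAA, 9.56%) were in none of the 7 windows. A match here describes the letters of the window and not a site in use.

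The libraries held 8814690 to 10206236 UMIs and 1702 to 2756 cells, with a median of 2212 to 2503 UMIs per cell. HC2 stood apart: 59.5% of its UMIs were in cells, against 91.1% in HC1 and 93.9% in the CSD library. Libraries shared at most 8 cell barcodes. Clusters were named from marker genes, and all 12 neutrophil markers listed were detected in neutrophil-like cells. These made up 758 cells (29.2%) of HC1, 519 (30.5%) of HC2 and 1293 (46.9%) of the CSD library. The 5 genes and 47 further pathway genes were left out of the clustering, so that they did not shape the clusters directly.

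Over all cells, *Il1b* gave 4382 UMIs, *Il1r2* 1728, *Il1f9* 825, *Il1rn* 489 and *Il1rap* 119. Neutrophil-like cells carried most of the UMIs of 4 of these genes in every library. Their share of *Il1b* UMIs was 67.9% and 59.6% in HC1 and HC2 and 83.5% in the CSD library. Their share of *Il1r2* UMIs was 73.0%, 75.1% and 80.3% in the same order, and that of *Il1f9* 79.0%, 79.0% and 84.5%. For *Il1rn* the shares were 75.3%, 78.1% and 81.5%. *Il1rap* was the exception, with 38.5%, 31.6% and 47.9%. Because the CSD library held more neutrophil-like cells, these shares mix cell number with the level per cell, and levels are given from here on within a cell type as CPM, the UMIs of a gene per 1000000 UMIs of that type in a library.

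*Il1b*, the main inflammatory ligand of the family, was highest in neutrophil-like cells, at 499 ± 11.8 CPM (mean ± SD, n = 3 libraries), and this level was close to constant across libraries. It was 498 CPM in HC1, 511 in HC2 and 488 in the CSD library. With every cell thinned to the same depth (described below), it was 1095, 1044 and 1067 CPM in the same order. The level of *Il1b* thus depended on thinning, while its evenness across libraries held. Next came conventional dendritic cell-like (cDC-like) cells at 198 ± 135 CPM and border macrophage-like cells at 163 ± 125 CPM, the macrophages that line the meninges. In these cells HC2 was far above the other libraries (354 CPM against 127 and 113 in cDC-like cells, and 308 against 90.0 and 92.2 in border macrophage-like cells). Their order therefore does not hold beyond the spread between libraries, whereas no library of either type reached the neutrophil-like range. Mast cell and basophil-like cells had a mean of 195 CPM, but it rested on 24 UMIs and ran from 11.7 to 433 CPM.

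Monocyte-like cells held 83.0 ± 14.2 CPM of *Il1b*, microglia-like cells 75.3 ± 35.3 and preneutrophil-like cells, the proliferating precursors of neutrophils, 62.5 ± 26.2. NK-like and mature B-like cells, which are not expected sources of IL-1β, had 74.8 ± 57.2 and 71.9 CPM (57.1 to 81.2 over libraries for the latter). The levels of these 5 types overlapped. RNA freed from lysed cells was present in all droplets: it was estimated at 21.4%, 25.5% and 16.4% of the UMIs of neutrophil-like cells in HC1 and HC2 and the CSD library. In monocyte-like cells free RNA alone would give 42.6, 60.5 and 42.2 CPM of *Il1b*, against 72.4, 99.1 and 77.6 measured. In neutrophil-like cells it would give 41.4, 59.2 and 40.1 CPM, far below the level measured in each library.

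**Figure D1:**
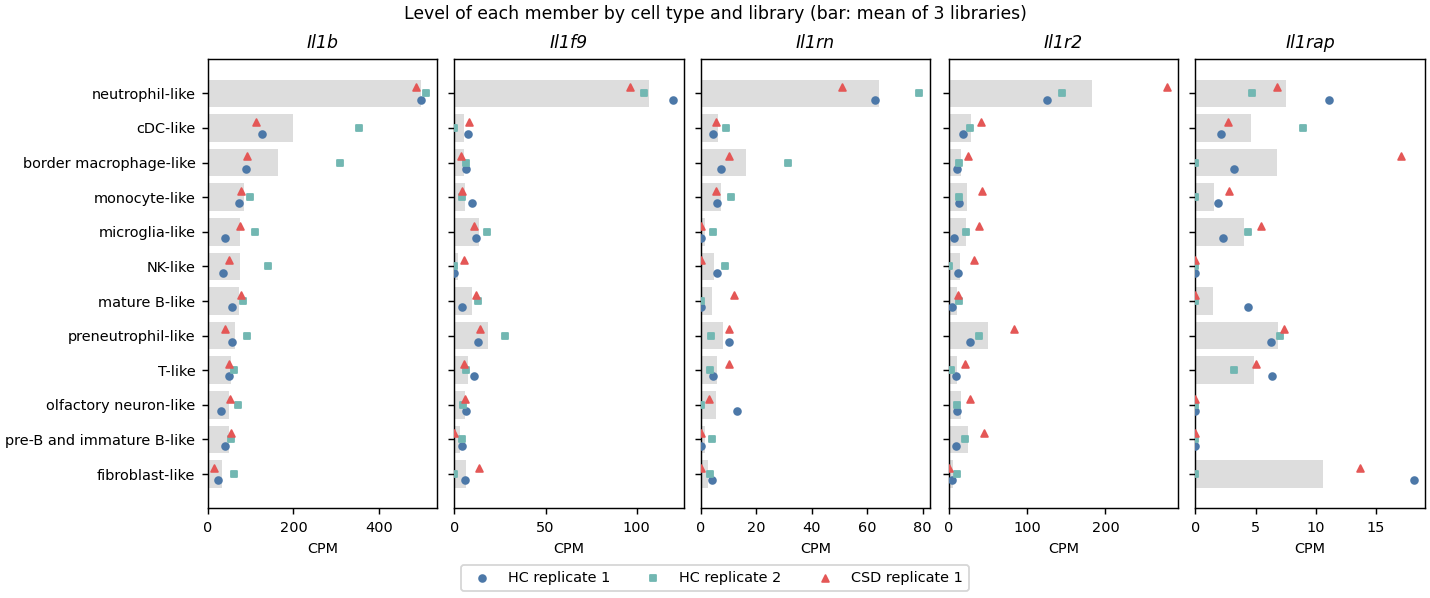
Level of each of the 5 genes (CPM, linear axes that differ between panels) in the 12 cell types with at least 20 cells in every library, with points for the libraries and a bar for their mean. The *Il1b*, *Il1f9*, *Il1rn* and *Il1r2* points of neutrophil-like cells lie above those of all other types shown, and the *Il1rap* points overlap between types.

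*Il1f9*, the ligand of the IL-36 branch, was nearly limited to neutrophil-like cells, at 107 ± 11.9 CPM. The libraries stood at 119.7, 104 and 96.4 CPM (HC1, HC2, CSD). After thinning they stood at 161, 216 and 122 CPM. Preneutrophil-like cells followed at 18.2 ± 8.55 CPM and microglia-like cells at 13.4 ± 3.71 CPM, whose ranges overlapped. Cells outside the neutrophil-like and preneutrophil-like groups together held 7.32, 7.32 and 8.80 CPM. The empty droplets held 29.6, 35.2 and 30.4 CPM of *Il1f9*, above the level in all those cells.

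*Il1rn*, the antagonist, was likewise highest in neutrophil-like cells, at 62.9, 78.8 and 50.9 CPM in HC1 and HC2 and the CSD library (64.2 ± 14.0). Border macrophage-like cells were next at 16.4 ± 13.1 CPM, a mean drawn up by 31.5 CPM in HC2, which rested on 5 UMIs. Preneutrophil-like cells had 7.91 ± 3.82 and monocyte-like cells 7.46 ± 3.08 CPM, values that overlapped each other and those of border macrophage-like cells.

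*Il1r2*, the decoy receptor, followed the neutrophil lineage too, and here the libraries parted. Neutrophil-like cells held 125 CPM in HC1, 145 in HC2 and 279 in the CSD library. Preneutrophil-like cells held 26.6, 38.5 and 82.8 CPM, and cDC-like cells 18.3, 26.8 and 41.3. Monocyte-like cells held 13.3, 13.2 and 42.3 CPM from 7, 6 and 30 UMIs. In each of these 4 types the CSD library was above both HC libraries. The same order held for the *Il1r2* of empty droplets (48.8, 49.8 and 118 CPM). Free RNA alone would give 10.7, 12.96 and 20.3 CPM in monocyte-like cells, so their HC values were at that level and their CSD value above it. It would give 10.8, 14.5 and 24.3 CPM in cDC-like cells, below each measured value. In border macrophage-like cells it would give 11.8, 13.8 and 27.7 CPM, above each measured value.

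*Il1rap*, the accessory protein of the signaling receptors, was scarce everywhere. Neutrophil-like cells had 11.1, 4.73 and 6.80 CPM from 20, 6 and 23 UMIs. Fibroblast-like cells had the highest mean of the 12 types compared, 10.6 ± 9.46 CPM, from 9, 0 and 1 UMIs. No UMI of *Il1rap* was seen in NK-like, olfactory neuron-like, pre-B and immature B-like or pro-B-like cells. At this depth no order of cell types could be read for *Il1rap*.

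Neutrophil-like cells fell into 2 clusters that carried the ligand very unequally. Cluster 1 (484, 332 and 804 cells), led by *Retnlg* and *Cxcr2*, genes of mature neutrophils, held 1125, 1094 and 1088 CPM of *Il1b*. Cluster 2 (274, 187 and 489 cells), led by the granule genes *Ltf*, *Camp* and *Ngp* of immature neutrophils, held 93.5, 133 and 94.4 CPM. The ranges were far apart in every library. *Il1f9* was also higher in cluster 1 (226, 204 and 179 CPM) than in cluster 2 (51.3, 39.0 and 42.6 CPM), as was *Il1rn* (105, 128 and 80.0 against 35.8, 46.8 and 31.8 CPM). *Il1r2* differed less between the clusters in the HC libraries, with 193 and 199.96 CPM in cluster 1 and 80.7 and 109 in cluster 2. In the CSD library it was 492 CPM in cluster 1 and 139 in cluster 2.

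Clustering the neutrophil-like cells again gave 5 subclusters. *Il1b* was concentrated in subcluster 1, with 1883, 1874 and 1981 CPM in HC1 and HC2 and the CSD library. In subcluster 2, led by *Retnlg*, *Bst1* and *Fpr1*, it was 153, 254 and 272 CPM. Subcluster 4, led by the precursor genes *Orm1* and *Fcnb*, had the lowest *Il1b* of the 5, 45.0 ± 10.9 CPM. Subcluster 5 also had these genes among its leading ones but held more *Il1b*. After TMM scaling (described below) it was at 157, 228 and 191 CPM, against 40.1, 55.1 and 41.6 in subcluster 4. *Il1r2* was spread more evenly: in the HC libraries it ran from 55.8 and 57.6 CPM in subcluster 4 to 257 and 244 in subcluster 1, and in subcluster 2 it was 115 and 165. Decoy receptor transcripts were thus also found where *Il1b* was low.

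The balance of decoy receptor and ligand was taken as *Il1r2* UMIs per 100 *Il1b* UMIs of the same cells. It was 17.2, 18.3 and 45.3 in cluster 1 and 86.3, 82.4 and 148 in cluster 2. Over all neutrophil-like cells it was 25.03, 28.4 and 57.2, so the CSD library held more decoy receptor transcript per ligand transcript than either HC library. *Il1rn* per 100 *Il1b* UMIs was 12.6, 15.4 and 10.4 over the same cells, with the CSD library lowest. *Il1f9* per 100 *Il1b* UMIs was 24.0, 20.3 and 19.8, where the CSD library and HC2 were close. A ratio of 2 genes in 1 library does not depend on how the library was scaled.

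**Figure D2:**
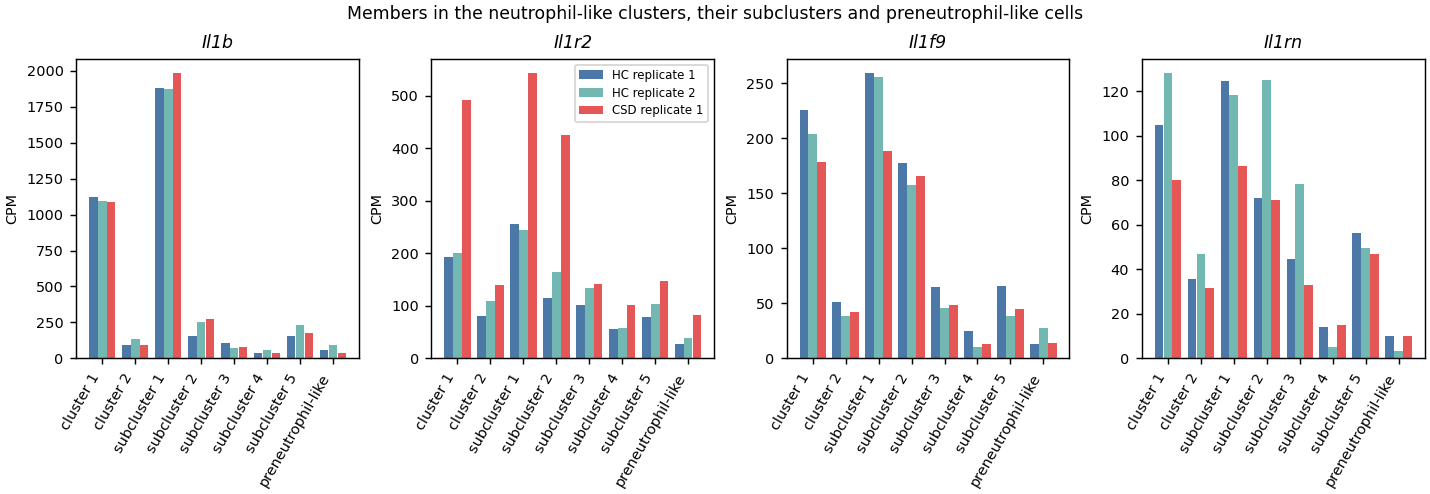
Levels (CPM, bars from 0, axes that differ between panels) of 4 of the genes by library in the neutrophil-like clusters, their subclusters and preneutrophil-like cells, 1 bar per library with no error. *Il1b* bars of the 3 libraries are alike in cluster 1 (1088 to 1125 CPM), while the *Il1r2* bar of the CSD library (492 CPM) stands above both HC bars.

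Single cells of cluster 1 were uneven for *Il1b*. No *Il1b* UMI was seen in 47.3%, 46.4% and 46.0% of them (HC1, HC2, CSD), while the 10% of cells with the most held 45.5%, 45.7% and 44.9% of all its UMIs. Up to 14, 17 and 19 UMIs were counted in 1 cell. For *Il1r2*, cells without a UMI made up 75.8% and 75.9% of cluster 1 in the HC libraries and 52.4% in the CSD library. The highest count in 1 cell was 3 and 4 in the HC libraries and 13 in the CSD library, where 9 cells had at least 5 UMIs and no HC cell did.

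Depth differed between cells, so shares of cells with a UMI were also taken after thinning each cell to 500 UMIs. In cluster 1, 37.6%, 36.4% and 36.3% of cells then had an *Il1b* UMI (52.7%, 53.6% and 54.0% before thinning). The thinned *Il1r2* share was 10.7% (exact 95% interval 8.13 to 13.8) in HC1, 9.04% (6.18 to 12.6) in HC2 and 21.1% (18.4 to 24.1) in the CSD library. The CSD interval did not meet either HC interval. Before thinning these shares were 24.2%, 24.1% and 47.6%. In cluster 2 the thinned *Il1r2* shares were 4.01%, 8.02% and 7.16%, with overlapping intervals. Exact intervals here cover counting error within 1 library and not the differences between pools of mice.

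NK-like and mature B-like cells give the background for these shares. Thinned NK-like cells had an *Il1r2* UMI in 0 of 69, 0 of 50 and 0 of 86 cells, which allows shares of up to 4.35%, 6.00% and 3.49%. Mature B-like cells had one in 0.725%, 0% and 0% of cells. Their *Il1b* shares were 1.45%, 8% and 0% (NK-like) and 2.17%, 4.38% and 4.24% (mature B-like). The thinned *Il1b* shares of cluster 2 (2.92%, 3.74% and 4.29%) lay within the range of these background shares over all libraries, although in HC1 and the CSD library they were above both background types of the same library, with overlapping exact intervals. Those of cluster 1 were well above it in every library. Median depth before thinning was 1912 to 2086 UMIs in NK-like, 1369 to 1605 in mature B-like and 1274.5 to 1528 in cluster 1 cells.

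**Figure D3:**
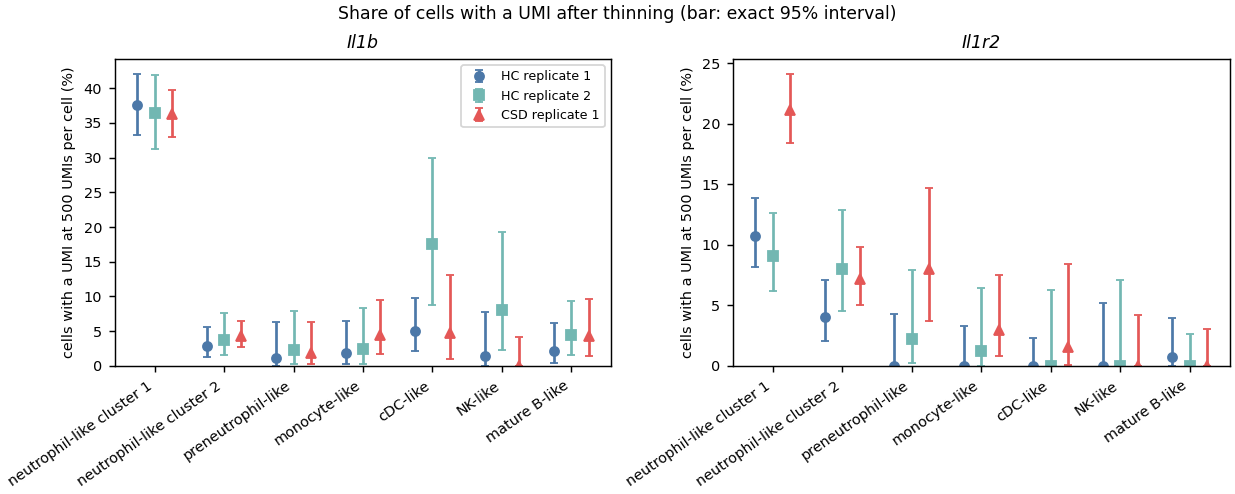
Share of cells with at least 1 UMI of *Il1b* (left) or *Il1r2* (right) after thinning to 500 UMIs per cell (%, linear axes), 1 point per library with its exact 95% interval for counting error. *Il1r2* in cluster 1 was found in 21.1% of CSD cells and 9.04% to 10.7% of HC cells, and NK-like cells showed none.

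The ligand and the decoy receptor were found in overlapping cells of cluster 1. Among thinned cells with an *Il1b* UMI, 14.8%, 14.0% and 25.3% also had an *Il1r2* UMI, against 8.28%, 6.16% and 18.8% of cells without one. In each library the share was higher in the *Il1b*-positive cells, and the CSD library was higher on both sides. Within subcluster 1 (described above) the shares were 15.9%, 15.2% and 24.7% with and 11.1%, 7.26% and 22.9% without *Il1b*, nearly alike in the CSD library. In subcluster 2 they were 0%, 6.25% and 28.6% with and 4.38%, 6.82% and 15.4% without, so the libraries did not share a direction there. The part of the subcluster mix in the cluster 1 shares was not tested. For *Il1rn* the corresponding shares in cluster 1 were 7.14%, 2.48% and 6.51% with and 4.97%, 6.16% and 4.49% without *Il1b*, so the libraries did not share a direction.

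To ask how CSD and HC differed within a cell type, UMIs were summed per library and tested with edgeR, for every gene detected in over 15% of cells. *Il1r2* rose in neutrophil-like cells of the CSD library, while *Il1b* and *Il1f9* did not pass. The *Il1r2* levels were 125 and 145 CPM in the HC libraries and 279 in the CSD library, 2.07 times the HC mean of 135, with the CSD value outside the HC range. The log2 fold change was 1.13 (SE 0.13, adjusted p = 0.0147), and it was 1.06 without HC1 and 1.18 without HC2. Of the 1187 genes tested, 6 passed the threshold of 0.05, or 0.505%, and 4 of them rose (0.337%). *Il1r2* was 1 of the 3 members that passed the filter, and its unthinned share of cells was above 15% in every library (25.1%, 27.7% and 45.2%). The call depended on the settings: it held in 4 of 10 alternatives with a test and was lost in 6, with log2 fold changes between 0.99 and 1.28 and adjusted p from 0.00227 to 0.646. The fit had 1 residual degree of freedom and takes the spread of the single CSD library to equal that of the HC libraries.

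The ligand *Il1b* had a log2 fold change of 0.03 (SE 0.15, adjusted p = 0.947) from 498, 511 and 488 CPM. In plain CPM the CSD library was lowest. TMM scaling in the wider fit described below gave 489, 472 and 542 CPM (HC1, HC2, CSD), with the CSD library highest. The log2 fold change of *Il1b* in that wider fit was 0.17 (SE 0.11, adjusted p = 0.718). In the main fit *Il1f9* had -0.15 (SE 0.20, adjusted p = 0.735) from 119.7, 104 and 96.4 CPM. *Il1rn* and *Il1rap* were seen in too few cells to enter that test. When all 9485 genes with at least 10 UMIs were tested instead, no gene passed in edgeR (0%), although 713 had an unadjusted p under 0.05. In that wider fit *Il1rn* had -0.24 (SE 0.18, adjusted p = 0.746) and *Il1rap* -0.08 (SE 0.59, adjusted p = 0.982), and *Il1r2* had 1.28 (SE 0.13, adjusted p = 0.646).

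Transcripts of other cell types in the neutrophil-like sums also differed between libraries. The 9 fibroblast markers, 1 of them at 0, summed to 476, 474 and 57.4 CPM in HC1 and HC2 and the CSD library. The 8 erythroid markers, none at 0, summed to 1943, 3361 and 5168 CPM, and the 11 border macrophage markers, none at 0, to 3894, 1685 and 1129 CPM. The part of these transcripts in the *Il1r2* difference was not tested. Free RNA would give 10.4, 12.7 and 19.3 CPM of *Il1r2* in these cells, a smaller gap than the one measured, and with the empty-droplet profile subtracted the log2 fold change was 0.99 (SE 0.16, adjusted p = 0.567).

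**Figure D4:**
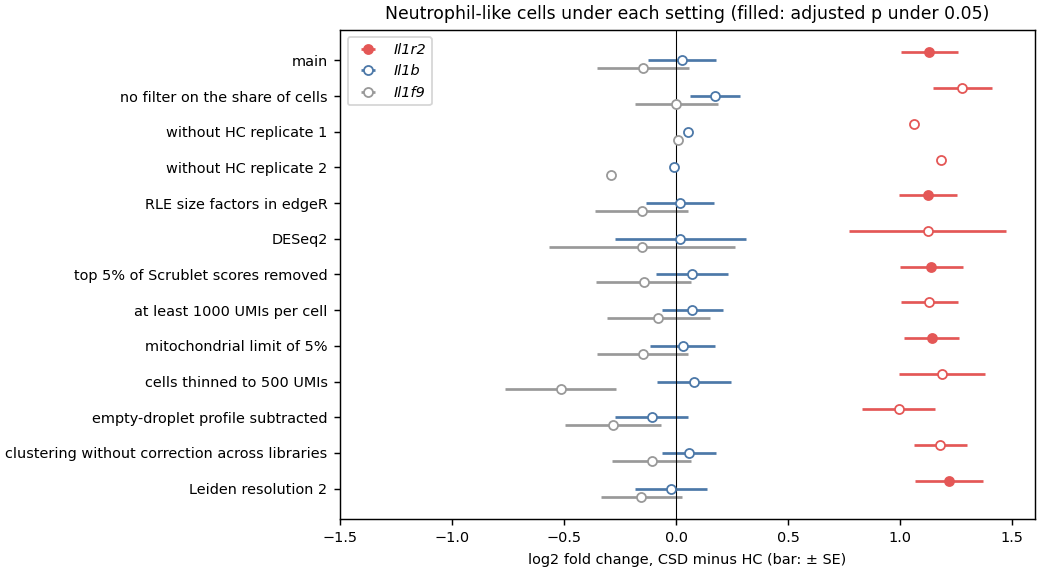
Log2 fold change of *Il1r2*, *Il1b* and *Il1f9* in neutrophil-like cells (x axis, CSD minus HC, bars ± SE) under the main settings and each alternative, where filled points passed the adjusted p threshold of 0.05 and points without bars left out 1 HC library and have no test. *Il1r2* lies between 0.99 and 1.28 in the fits with a test, and *Il1b* lies near 0. The edgeR bars were derived from the F statistic and the DESeq2 bars are its own SE.

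Within the clusters the *Il1r2* difference lay mainly in cluster 1 by size. There it was 193, 199.96 and 492 CPM, with a log2 fold change of 1.39 (SE 0.13, adjusted p = 0.171), which did not pass. It was 1.39 without HC1 and 1.37 without HC2. In cluster 2, with 80.7, 109 and 139 CPM, the log2 fold change was 0.65 (SE 0.19, adjusted p = 0.528). Of the 877 and 1746 genes tested, 2 (0.228%) and 1 (0.0573%) passed, and 129 and 141 had an unadjusted p under 0.05. Without the filter on cells the call in cluster 2 passed (0.77, SE 0.22, adjusted p = 0.0312, with 1.53% of genes passing, 0.411% upward), and that in cluster 1 did not (1.56, SE 0.11, adjusted p = 0.679). The difference between the clusters was not tested. *Il1b* had 0.03 (SE 0.13, adjusted p = 0.915) in cluster 1 and -0.17 (SE 0.22, adjusted p = 0.792) in cluster 2, and *Il1f9* -0.21 (SE 0.17, adjusted p = 0.528) and -0.04 (SE 0.28, adjusted p = 0.964).

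The clusters made up similar parts of the neutrophil-like cells in each library, with cluster 1 at 63.9%, 64.0% and 62.2%. Subcluster 2 was a larger part of them in the CSD library (19.5%, 20.04% and 26.4%). Tests by subcluster were added after these values were known. They were run only with and without the filter on cells and with each HC library left out. The other alternatives were not run for them. *Il1r2* rose in subcluster 2 (115, 165 and 426 CPM, log2 fold change 1.65, SE 0.26, adjusted p = 3.54e-05), where 2.4% of 1123 genes passed and 1.34% passed upward. The value was 1.43 without HC1 and 1.88 without HC2. In subcluster 1, with 257, 244 and 543 CPM, it was 1.15 (SE 0.16, adjusted p = 0.19, with 0.275% of genes passing), which passed only without the filter on cells (1.29, SE 0.19, adjusted p = 0.00595, with 0.601% of genes passing, 0.395% upward). The log2 fold changes in subclusters 3, 4 and 5 were 0.35, 0.92 and 0.78, with adjusted p of 0.659, 0.328 and 0.438, where 0.07%, 2.06% and 0.959% of genes passed. *Il1b* in subcluster 2 had 0.48 (SE 0.27, adjusted p = 0.507), and *Il1rn*, which passed the filter there, -0.39 (SE 0.36, adjusted p = 0.763).

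*Il1r2* also rose in preneutrophil-like cells, a test likewise added after the values were seen and limited to the same settings. The levels were 26.6 and 38.5 CPM in the HC libraries and 82.8 in the CSD library, from 21, 11 and 90 UMIs. The log2 fold change was 1.46 (SE 0.37, adjusted p = 0.0128), with 1.05% of 3141 genes passing and 0.127% passing upward. It was 1.16 without HC1 and 1.62 without HC2, and the call also passed without the filter on cells (1.55, SE 0.36, adjusted p = 0.00558, with 0.594% of 7402 genes passing and 0.0946% upward). The HC2 cells were mostly of 1 shallow cluster, so that their median was 812 UMIs against 9881 and 10143.5. With that cluster left out, 77, 28 and 103 cells remained and the log2 fold change was again 1.46 (SE 0.37, adjusted p = 0.0152, with 0.884% of 3847 genes passing). The call was lost there without the filter on cells (1.52, SE 0.32, adjusted p = 0.97), a fit in which none of 7293 genes passed in edgeR and 235 had an unadjusted p under 0.05. *Il1b*, the other member tested in all preneutrophil-like cells, had 57.0, 91.0 and 39.6 CPM and a log2 fold change of -0.77 (SE 0.37, adjusted p = 0.819).

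In monocyte-like cells only *Il1b* passed the filter, and it did not pass the test. Its levels of 72.4, 99.1 and 77.6 CPM gave a log2 fold change of -0.14 (SE 0.28, adjusted p = 0.943), which was -0.32 without HC1 and 0.05 without HC2. Of 3107 genes, 25 passed (0.805%). In the wider fit of 7664 genes, of which 0.835% passed, *Il1r2* had 1.69 (SE 0.51, adjusted p = 0.0893) from 7, 6 and 30 UMIs. *Il1f9* had -0.69 (SE 1.05, adjusted p = 0.942) and *Il1rn* -0.48 (SE 0.94, adjusted p = 0.954), and *Il1rap* had too few UMIs. The 12 neutrophil markers, none at 0, summed to 36072, 32036 and 42532 CPM in monocyte-like cells, and their part in the *Il1r2* values was not tested.

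Border macrophage-like cells gave *Il1b* levels of 90.0, 308 and 92.2 CPM, so the CSD value lay between the HC values. The log2 fold change was -0.84 (SE 0.47, adjusted p = 0.999), with 3 of 2016 genes passing (0.149%). HC2 decided this value: it was -1.73 without HC1 and 0.04 without HC2. In the wider fit, where none of 7749 genes passed in edgeR and 182 had an unadjusted p under 0.05, *Il1r2* had 1.18 (SE 0.44, adjusted p = 0.999) from 10, 2 and 7 UMIs. *Il1rn* had -0.15 (SE 1.41, adjusted p = 0.999) there, and *Il1f9* and *Il1rap* had too few UMIs to be tested. The measured *Il1r2* levels (10.6, 12.6 and 23.9 CPM) were below those that free RNA alone would give (11.8, 13.8 and 27.7 CPM).

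Whether the CSD to HC difference was itself different between neutrophil-like and monocyte-like cells was tested as an interaction, with library as a block. For *Il1b* the difference of the log2 fold changes was 0.18 (neutrophil-like minus monocyte-like, SE 0.24, adjusted p = 0.724). Only 1 of 1126 genes passed (0.0888%). For *Il1r2*, which entered only without the filter on cells, it was -0.47 (SE 0.46, adjusted p = 0.814), where 0.83% of 7468 genes passed. A difference in the *Il1r2* response of the 2 cell types was therefore not shown.

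Of the 47 further genes of the pathway, none passed in neutrophil-like, monocyte-like or border macrophage-like cells with edgeR, against 0.505%, 0.805% and 0.149% of all genes. With DESeq2 0 of the same genes passed in each type, against 13 of 1187, 1 of 3107 and 0 of 2016 among all genes. In neutrophil-like cells 4 could be tested, with a median log2 fold change of -0.14 (all genes, -0.002), in monocyte-like cells 14 (median -0.08, all genes -0.02) and in border macrophage-like cells 7 (median -0.28, all genes -0.02). In edgeR, 1 gene in neutrophil-like, 2 in monocyte-like and 0 in border macrophage-like cells had an unadjusted p under 0.05, and in DESeq2 0 did in each. Among all genes, 153 of 1187, 251 of 3107 and 74 of 2016 did in edgeR, and 44, 37 and 9 in DESeq2. *Pycard*, the adaptor that joins inflammasome sensors to caspase-1, was at 111, 135 and 159 CPM in neutrophil-like cells (0.45, SE 0.15, adjusted p = 0.283). It was at 503, 449 and 677 CPM in monocyte-like cells (0.50, SE 0.19, adjusted p = 0.452). *Casp1*, which cuts the IL-1β precursor, had 0.05 (SE 0.34, adjusted p = 0.982) in monocyte-like cells. In neutrophil-like cells *Casp1* entered only the wider fit (0.41, SE 0.21, adjusted p = 0.677), as did the sensor *Nlrp3* (-0.21, SE 0.27, adjusted p = 0.837). In that edgeR fit 37 of the genes were tested and none passed, with 2 at an unadjusted p under 0.05. Among all 9485 genes of the fit, 0 passed and 713 had an unadjusted p under 0.05.

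The partners of the 5 genes in the meninges were sparse. *Il1a*, the second IL-1 receptor agonist, had 24, 21 and 1 UMIs over all cells, of which 19, 13 and 1 were in microglia-like cells. *Il1r1*, the signaling receptor, had 25, 11 and 24 UMIs, of which 12, 3 and 1 were in fibroblast-like and 2, 0 and 4 in neutrophil-like cells. Neither gene had enough UMIs in a tested cell type to be compared between CSD and HC.

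Over the 12 types with at least 20 cells in every library and the 3 libraries (36 points), 7361 genes were ranked by the likeness of their log2(CPM + 10) to each member. The points share libraries and depth, so the correlations are descriptive. *Il1b* was most like *Adam8* (Pearson's r = 0.779), *Ccl6* (0.765) and its own antagonist *Il1rn* (0.764). *Il1r2* was most like *Slpi* (0.859), *Scrg1* (0.854) and *Mmp8* (0.838), and *Il1f9* was most like *Gm20406* (0.882), *Stfa2l1* (0.857) and *Mmp9* (0.854). *Il1rn* was most like *BC100530* (0.845), *Cxcl2* (0.809) and *Gm20406* (0.808). *Il1rap*, with 119 UMIs, was below the 200 UMIs needed for the ranking.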

How the data were processed

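Meningeal cells were profiled in 3 libraries of 4 pooled mice (HC replicates 1 and 2, CSD replicate 1). The authors deposited whole-number UMI counts per gene and barcode, made with Cell Ranger 2 on mm10, for all barcodes in 1 table. Barcodes were given to libraries by the library numbers in the submitters' descriptions, and 0 columns of other samples were set aside. None of the authors' cell calls, doublet calls or cluster names was used. The 5 genes and the gene lists were chosen with earlier results of these data known, among them the higher *Il1r2* in CSD neutrophils, so that its rise here is not independent support.

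Counts were normalized per cell. Then 3000 variable genes without the 52 IL-1 genes were reduced to 50 components and corrected across libraries (mutual nearest neighbors, 20). Cells were clustered (Leiden at resolution 1, 15 neighbors, leidenalg 0.10.2) into 25 clusters. Clusters were called "X-like" from marker lists, by a scoring rule revised after the cluster tables were seen and before any CSD to HC test. The neutrophil-like cells were clustered again at resolution 0.8, the only value tried. Doublets were kept in the main analysis. Summed counts per library and type were tested two-sided with edgeR 4.0.16 (quasi-likelihood, TMM, R 4.3.3), on genes seen in more than 15% of cells, with Benjamini-Hochberg adjustment over all genes tested and a threshold of 0.05. With 1 residual degree of freedom, p-values measure only the spread between these pools. The SE given with an edgeR value is the size of its log2 fold change over the square root of its F statistic. The SE of DESeq2 is its own estimate. Counts were simulated at the depth of neutrophil-like cells (1187 genes), with 100 genes changed by 1 log2 unit and 100 by 2. The same spread was assumed for every gene. Of the genes changed by 1 log2 unit 89% were recovered, and all of those changed by 2, with 10 false calls. For monocyte-like cells (3107 genes) the shares were 54% and 94%, and for border macrophage-like cells (2016 genes) 20% and 83%. The simulation changed many more genes at once than passed in the data, so these shares do not give the power of the tests above.

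Alternatives were no filter on cells (at least 10 UMIs per gene), RLE size factors, DESeq2 1.42.0, removal of the 5% of cells with the highest Scrublet scores, at least 1000 UMIs per cell, a mitochondrial limit of 5%, thinning to 500 UMIs, subtraction of the profile of barcodes with at most 100 UMIs, clustering without correction, Leiden resolution 2, and each HC library left out. Beyond the main settings, single clusters, subclusters and preneutrophil-like cells were analyzed only without the filter on cells and with each HC library left out. Free RNA was estimated from 29 marker genes of fibroblasts, B cells and olfactory neurons. Intervals are exact (Clopper-Pearson, 95%), and a count of 0 was taken to allow up to 3 UMIs or cells. The genes named were the 5 members, *Il1a*, *Il1r1*, *Nlrp3*, *Pycard* and *Casp1*, any other pathway gene past the threshold, and the 3 genes most like each member. Sequences came from RefSeq (GRCm38.p6).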

Additional observations from a re-analysis of the deposited data

Results flagged for a closer look

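Some barcodes that were not called as cells carried more *Il1b* or *Il1r2* in the CSD library than in either HC library. In barcodes with more than 100 UMIs that were not cells, *Il1b* stood at 1338 CPM in the CSD library (89 UMIs, exact interval for counting error 1074 to 1646), against 331 CPM in HC replicate 1 and 239 in HC replicate 2. *Il1r2* in the same barcodes stood at 180.4 CPM (12 UMIs, 93.2 to 315), against 37.8 and 40.9. In barcodes with at most 100 UMIs, *Il1r2* stood at 118 CPM (66 UMIs, 91.3 to 150.1), against 48.8 and 49.8, whereas *Il1b* there was close between libraries (194 and 233 CPM in the HC libraries and 245 in the CSD library, from 151, 495 and 137 UMIs). The values in barcodes with more than 100 UMIs lay outside the comparisons above. The *Il1r2* level of barcodes with at most 100 UMIs is the empty-droplet level already given. The first 3 of these values were singled out because the CSD interval was above both HC values. The difference was not tested between groups, since there is 1 CSD library.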

How the results depend on the processing

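In neutrophil-like cells the rise of *Il1r2* passed under RLE size factors, removal of high Scrublet scores, the stricter mitochondrial limit and Leiden resolution 2. Among all genes, 8 of 1187, 21 of 1168, 6 of 1187 and 5 of 989 passed under these, in the same order. The call of *Il1r2* was lost without the filter on cells (1.28, adjusted p = 0.646), with DESeq2 (1.12, SE 0.35, adjusted p = 0.0868), at 1000 UMIs per cell (1.13, adjusted p = 0.072), after thinning (1.19, adjusted p = 0.0732), after subtraction of the empty-droplet profile (0.99, adjusted p = 0.567) and without correction across libraries (1.18, adjusted p = 0.215). Under each of these the number of members past the threshold went from 1 to 0, and the cause was not tested. Among all genes, 0 of 9485, 13 of 1187, 1 of 1305, 3 of 1187, 1 of 1181 and 1 of 1190 passed, in the same order. Leaving out 1 HC library gave 1.06 to 1.18, with no test. Without the filter on cells the number went from 0 to 1 for the single clusters, where 0 of 7241 genes passed in cluster 1 and 127 of 8281 in cluster 2. For the alternatives chosen after seeing the data, the number of members went from 1 to 2 for the subclusters and from 1 to 0 for the preneutrophil-like cells without their shallow cluster. Among all genes, 35 of 5823 passed there in subcluster 1, 35 of 5415 in subcluster 2 and 0 of 7293 in the preneutrophil-like cells. Under the alternatives with a test, the log2 fold changes that turned sign were *Il1b* in neutrophil-like cells (-0.11 after subtraction, -0.022 at resolution 2), *Il1f9* in neutrophil-like cells (0.00061 without the filter on cells) and cluster 2 (0.087, likewise), and *Il1b* in monocyte-like cells (0.95, SE 0.86, after thinning, and 0.0071 without correction), none of which passed the threshold. Leaving out 1 HC library turned the sign of 13 of 30 log2 fold changes, 0 of them past the threshold and 0 of them of *Il1r2*. Among these were *Il1b* in neutrophil-like (-0.011 without HC replicate 2), monocyte-like (0.05, likewise) and border macrophage-like cells (0.04, likewise), *Il1f9* in neutrophil-like cells (0.0093 without HC replicate 1) and cluster 2 (0.26, likewise), and *Il1b* in subcluster 3 (0.18, likewise). Mean levels in neutrophil-like cells moved with thinning. *Il1b* went from 499 to 1069 CPM, *Il1f9* from 107 to 166, *Il1rn* from 64.2 to 88.3 and *Il1r2* from 183 to 244. Subtraction of the empty-droplet profile gave 452 CPM of *Il1b* in these cells, and removal of high Scrublet scores 506. No paired analysis was possible because the HC and CSD libraries are separate pools of mice with no pairing in the labels. Depth limited *Il1rap* and, outside the neutrophil lineage, *Il1f9*, *Il1rn* and *Il1r2*, each with few UMIs per library and type.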

Other observations

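*Il1b* was higher in neutrophil-like than in monocyte-like cells, whereas *Pycard* and *Casp1*, inflammasome genes that act ahead of IL-1β release, were lower in neutrophil-like cells. The sensor *Nlrp3* was slightly higher there, from few UMIs in monocyte-like cells. *Pycard* was at 111, 135 and 159 CPM in neutrophil-like cells (HC replicate 1, HC replicate 2, CSD), below monocyte-like cells (503, 449 and 677 CPM) and microglia-like cells (436, 410.1 and 450.2 CPM) in every library. *Casp1* was at 18.9, 22.8 and 23.7 CPM in neutrophil-like cells and at 45.7, 74.9 and 62.1 CPM in monocyte-like cells, again without overlap. *Nlrp3* was at 32.3, 25.2 and 21.6 CPM in neutrophil-like and 19.0, 19.8 and 18.3 CPM in monocyte-like cells, without overlap, and at 46.6, 70.6 and 16.3 CPM in microglia-like cells, a range that overlapped both. The monocyte-like *Nlrp3* levels came from low counts, as those cells held 525112, 453991 and 709015 UMIs of all genes, and the gap to neutrophil-like cells was smallest in the CSD library. These are levels of clusters of the same cells and were not tested.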
